A study of Mus musculus with 9 samples.

Results

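SWI/SNF and NuRD are chromatin remodelling complexes built around a DNA-dependent ATPase and many exchangeable subunits. Their subunit genes were followed in RNA sequencing counts from mouse pancreatic islets. A list of 40 gene symbols, 26 for SWI/SNF and 14 for NuRD, was matched to the 23329 gene symbols of the count table, and all 40 were present. The filter on low counts kept 37 of them among the 12402 genes tested, 23 of SWI/SNF and all 14 of NuRD. Smarcd3, Dpf1 and Dpf3 had at most 9 counts in any library and were not tested.

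The series compared islets of 2 genotypes in male mice. Polyadenylated RNA was sequenced in 4 control libraries with the genotype label Pdx1+/-, which names a heterozygous allele of the homeodomain factor Pdx1, and in 5 mutant libraries labelled Pdx1A4, an allele name that the labels do not explain. The control group therefore carries a Pdx1 allele label too, and no library is labelled as having 2 intact alleles. The labels give no age, and whether each library stands for an animal of its own is not stated there. The p-values given here therefore rest on library-to-library spread, part or all of which may be technical.

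SWI/SNF complexes slide and evict nucleosomes and are best known for opening enhancers and promoters. Each complex carries 1 of the ATPases Smarca2 or Smarca4 on a shared core, and the canonical BAF, PBAF and noncanonical BAF forms differ in their targeting subunits. NuRD joins a CHD-family ATPase to the histone deacetylases Hdac1 or Hdac2, with MTA, MBD, GATAD2 and RBBP scaffolds, and is known mainly for lowering histone acetylation at enhancers and promoters. In beta cells, Pdx1 is known to bind subunits of both families, among them Smarca4, Smarca2 and Chd4.

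Promoter sequences are shown for 5 subunits whose transcripts changed, namely Actl6b and Chd5, which had the most negative log2 fold changes, Bcl7b, which had the lowest p, and the NuRD scaffolds Mta2 and Mbd3. They are the bases before the annotated gene start, 5′ to 3′ on the gene's strand, from RefSeq's GRCm38.p6 table, in which 32 of the 40 genes were found. Capitals mark matches to the motifs named in the next paragraph.

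Actl6b, chr5:137553296-137553516, + strand: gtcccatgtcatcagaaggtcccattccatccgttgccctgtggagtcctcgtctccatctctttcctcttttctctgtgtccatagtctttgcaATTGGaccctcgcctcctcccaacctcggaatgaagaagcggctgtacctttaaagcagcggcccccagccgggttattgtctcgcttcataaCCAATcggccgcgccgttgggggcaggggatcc

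Chd5, chr4:152338401-152338650, + strand: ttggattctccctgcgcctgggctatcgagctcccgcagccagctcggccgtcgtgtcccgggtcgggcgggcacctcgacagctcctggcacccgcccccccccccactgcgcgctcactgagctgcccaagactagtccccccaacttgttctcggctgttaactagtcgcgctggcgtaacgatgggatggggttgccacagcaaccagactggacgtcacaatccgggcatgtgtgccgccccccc

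Bcl7b, chr5:135168122-135168282, + strand: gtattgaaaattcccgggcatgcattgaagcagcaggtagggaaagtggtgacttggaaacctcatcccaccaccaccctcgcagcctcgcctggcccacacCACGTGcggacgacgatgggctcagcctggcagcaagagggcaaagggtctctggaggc

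Mta2, chr19:8941670-8941874, + strand: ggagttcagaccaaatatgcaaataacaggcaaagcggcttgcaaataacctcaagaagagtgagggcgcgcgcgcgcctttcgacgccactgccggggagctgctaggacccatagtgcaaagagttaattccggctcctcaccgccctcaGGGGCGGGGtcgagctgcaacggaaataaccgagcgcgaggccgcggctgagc

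Mbd3, chr10:80399551-80399781, - strand: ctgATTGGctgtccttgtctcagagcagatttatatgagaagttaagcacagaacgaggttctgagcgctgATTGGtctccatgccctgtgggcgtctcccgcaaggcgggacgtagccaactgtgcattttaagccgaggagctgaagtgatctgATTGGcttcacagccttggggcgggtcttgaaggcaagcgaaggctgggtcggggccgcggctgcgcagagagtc

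The motifs were searched on both strands of the 250 bases before each RefSeq start, in 38 windows of the subunits and 32841 windows in all. The Bcl7b stretch held the E-box CACGTG, the core that the circadian CLOCK and BMAL1 proteins and the Myc family bind. That word was in 10.5% of the subunits' windows (Bcl7b, Bcl7c, Pbrm1 and Rbbp4) and in 6.02% of all windows. In the printed stretches Mbd3 carried 3 copies of ATTGG and Actl6b 1 copy on each strand, which is the CCAAT box read from the other strand or directly. The full Actl6b window held a further ATTGG, at position 231. CCAAT, added after these stretches had been read, was in 28.9% and 33.9% of windows. The printed Mta2 stretch held the GC box GGGGCGGGG, which was in 23.7% of the subunits' windows and 10.4% of all. The printed Chd5 stretch held none of the motifs searched. TAATTA, the core bound by many homeodomain factors, was in 5.26% and 4.84% of windows, and the full kappaB word that NF-kB binds was in none of the 38 and in 0.14% of all. The RE1 word of the neuronal repressor REST and the NRF1 word were also in none of the 38, against 0.00913% and 0.783% of all windows. The ETS word CCGGAAGT was in 2.63% and 2.88%. The subunit window with it was that of Mta2, at position 225, past the printed stretch. None of these words contains another. The median GC content was 67.6% over the subunits' windows and 52.4% over all.

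The libraries held 6092010 to 9163253 counts each, of which the 40 subunit genes took 0.217% to 0.256% in the controls and 0.139% to 0.196% in the mutants. Levels below are in CPM, a gene's count relative to the size of its library, with sizes corrected for composition by edgeR's TMM scaling. Pdx1 (chromosome 5, 147269959 to 147275848, GRCm38) had 12.9 ± 6.91 CPM in the mutants (SD, n = 5) and 29.5 ± 5.54 in the controls (SD, n = 4), with no overlap and a log2 fold change of -1.18 (edgeR adjusted p = 0.0461). Dropping any single control, mutant 1 or mutant 3 ended that call (6 of 9 fits, adjusted p of up to 0.113). The islet label fits the hormone genes in the controls, where they held 16.9% to 21.0% of counts. In the mutants they held 0.0691% (mutant 2) to 7.99%. Of 16 acinar markers, 15 rose, and their summed level was 8829 to 12959 CPM in the controls and 51299 to 126949 in the mutants. Of 12 ductal markers, 6 rose and 1 fell, with sums of 4713 to 13379 and 17772 to 30290.4 CPM. Of 16 genes of the endocrine secretory granule and its exocytosis, 15 were tested, 5 were called lower and none higher. Their sums were 17143 to 20894 CPM in the controls and 162 to 9852 in the mutants. All 15 log2 fold changes were below 0 (median -1.85), 13 of them without overlap. Of 10 beta cell markers, 9 were tested and all 9 were below 0 (median -1.97), 8 without overlap and 1 called. Of 10 proliferation genes, 7 rose, with sums of 102 to 140.0 and 169 to 388 CPM. Neuronal and Schwann cell markers (8 genes, 4 tested, 1 lower) summed to 25.0 to 29.7 and 1.21 to 23.0 CPM. No marker of these lists was at 0 in every library. In bulk RNA, fewer cells of a type and less RNA per cell cannot be told apart.

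The subunits of both complexes moved in both directions. Of the 37 tested, 5 were called higher and 4 lower in the mutants (edgeR quasi-likelihood test, Benjamini-Hochberg adjusted p under 0.05). Across all 12402 genes, 20.6% were called higher, 11.8% lower and 32.4% in either direction, against 13.5%, 10.8% and 24.3% of the 37. Smarcd2 and Brd7 of SWI/SNF and Mta2, Mta3 and Mbd3 of NuRD rose, and Actl6b and Bcl7b of SWI/SNF and Chd5 and Rbbp7 of NuRD fell. The groups did not overlap for 12 of the 37 subunits, 6 in each direction, where 33.2% of all genes had no overlap. Median absolute log2 fold changes were 0.40 for both complexes and 0.56 for all genes.

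Set side by side, 4 of 23 SWI/SNF subunits passed (17.4%, 2 in each direction), with a median log2 fold change of -0.19 and 10 values above 0 against 13 below. Of the NuRD subunits, 5 of 14 passed (35.7%, 3 higher and 2 lower), with a median of -0.07 and 7 values on each side. The all-gene median was 0.04, with 6482 values above 0 and 5920 below. At an unadjusted p under 0.05 there were 9 of 23 SWI/SNF and 9 of 14 NuRD subunits, where 5761 of all 12402 genes were. The shares rest on few genes, and the difference between the complexes was not tested. The split depends on scaling. RLE scaling (DESeq2's median-of-ratios size factors within edgeR) moved the all-gene median to -0.06 and the share of higher genes among all calls from 63.6% to 51.8%, and DESeq2 to 49.5%. Under RLE the calls of Brd7, Mta2 and Mta3 were lost and Smarca2 was called lower.

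**Figure D1:**
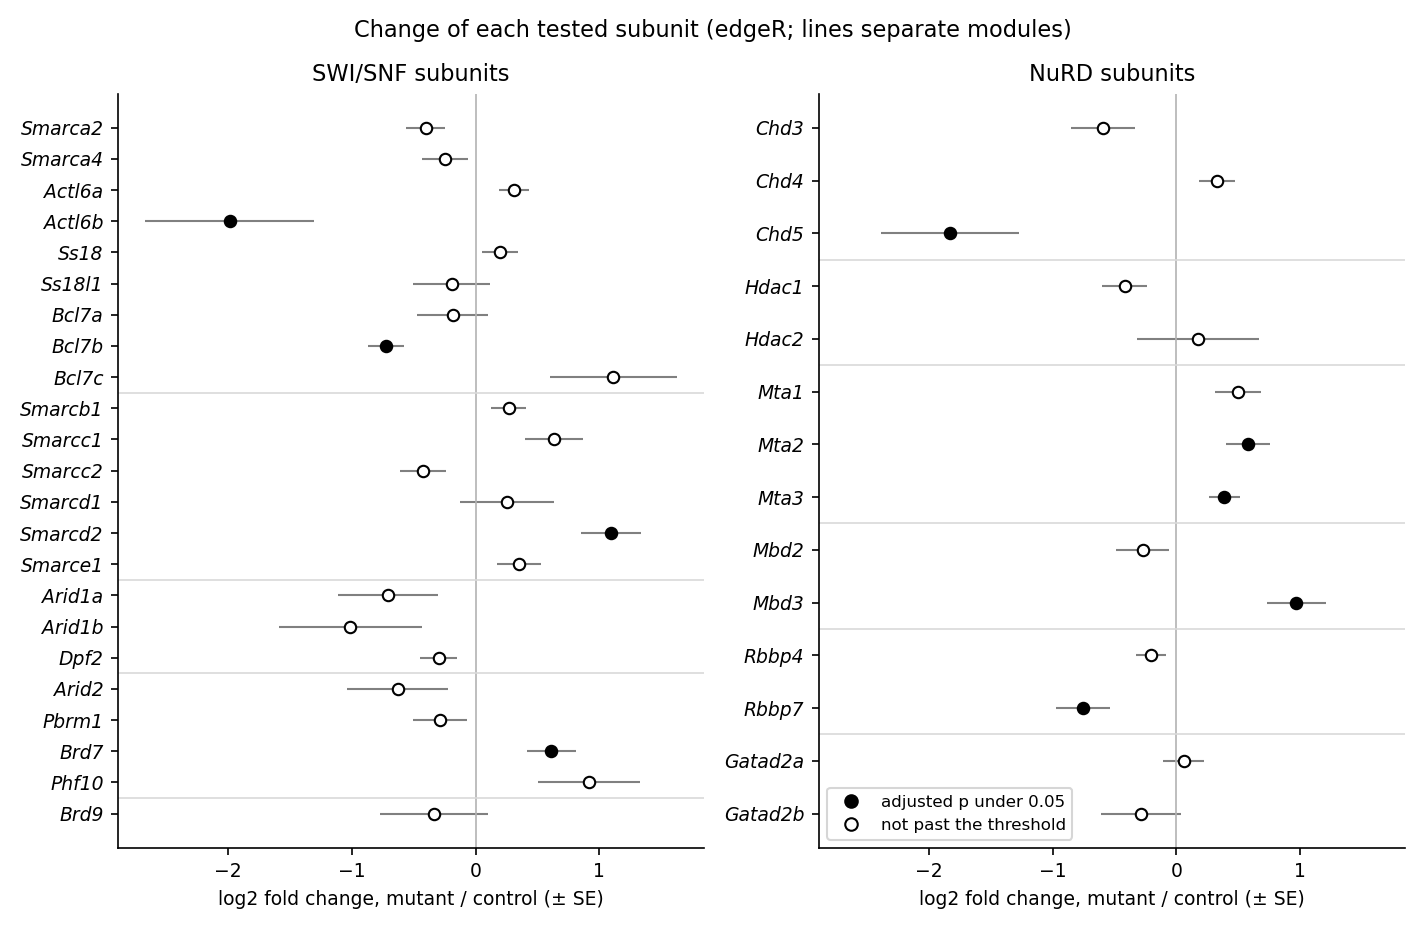
Log2 fold change, mutant over control, with its standard error for the 23 SWI/SNF and 14 NuRD subunits tested, ordered by module (filled points passed the threshold). The values run from -1.99 for Actl6b to 1.11 for Bcl7c, and filled points lie on both sides of 0 in each complex.

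The ATPase module of SWI/SNF (9 genes, all tested) held 2 lower calls, no higher one, and a median log2 fold change of -0.19. Actl6b (chromosome 5, 137553517 to 137569582) encodes BAF53B, the actin-like subunit known from neuronal BAF. It had 10.8, 6.73, 6.21 and 8.72 CPM in the controls (libraries 1 to 4, in order) and 3.63, 0.135, 0.303, 3.36 and 2.68 in the mutants (libraries 1 to 5). Every mutant lay below every control, and mutants 2 and 3, with 1 and 2 counts, were far below the other mutants. The group means were 8.11 ± 2.09 (SD, n = 4) and 2.02 ± 1.68 CPM (SD, n = 5). On the log2 scale this was a change of -1.99, standard error (SE) 0.69 (edgeR adjusted p = 0.0486). Leaving out any control, mutant 3 or mutant 5 ended the call, with a change of -2.31 to -1.75 and an adjusted p of up to 0.118 over the 9 such fits. Without mutants 2 and 3 the change of Actl6b was -1.38 and passed (edgeR adjusted p = 0.018).

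Its widely expressed paralog Actl6a, the BAF53A subunit, had 38.6, 44.0, 48.0 and 42.6 CPM in the controls and 54.9, 48.5, 57.0, 52.2 and 56.1 in the mutants. All mutants were above all controls, by a small margin, and the log2 fold change of 0.31 (SE 0.12) missed the threshold (edgeR adjusted p = 0.0674). Limma-voom called Actl6a higher (0.35, adjusted p = 0.0289).

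Bcl7b (chromosome 5, 135168283 to 135181855), a small subunit of the BCL7 family that sits on the ATPase module, had 51.5, 36.7, 50.7 and 50.1 CPM in the controls. The mutants had 31.6, 27.0, 30.5, 23.7 and 30.4. Control 2 was well below the other controls and still above every mutant. The means were 47.3 ± 7.05 (SD, n = 4) and 28.6 ± 3.26 CPM (SD, n = 5), and the log2 fold change was -0.72 (SE 0.15, edgeR adjusted p = 0.00745). It passed in all 9 fits without 1 library, at -0.92 to -0.68 and an adjusted p of at most 0.0278. Bcl7a had 5.05 ± 0.67 and 4.44 ± 1.51 CPM (log2 fold change -0.18, edgeR adjusted p = 0.635). Bcl7c had 2.19, 1.17, 1.87 and 3.58 CPM in the controls and 2.06, 4.04, 5.01, 10.2 and 2.81 in the mutants. Its value of 1.11 (SE 0.52) was the highest among the subunits, on 8 to 70 counts a library and with overlapping groups, and did not pass (edgeR adjusted p = 0.116).

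The 2 ATPases themselves did not pass with TMM scaling, and Smarca2 did with other scalings. Smarca2 (BRM) had 59.7, 81.5, 55.5 and 50.6 CPM in the controls and 48.2, 42.5, 43.8, 49.6 and 49.8 in the mutants. The groups were just apart, control 4 and mutant 5 being 50.6 and 49.8, and the log2 fold change was -0.40 (SE 0.16, edgeR adjusted p = 0.0712). It was called lower under RLE scaling (-0.50, edgeR adjusted p = 0.0303), under TMM without the hormone genes (-0.46, 0.0371) or without hormone and acinar genes (-0.45, 0.0375), and in DESeq2 (-0.50, adjusted p = 0.0154). Smarca4 (BRG1) had 105, 81.7, 78.8 and 102 CPM against 94.4, 53.0, 69.5, 80.5 and 88.7. Its groups overlapped widely and its change was -0.25 (SE 0.19, edgeR adjusted p = 0.315). Ss18, a BAF-specific subunit known from the synovial sarcoma fusion, had 46.1 ± 7.09 and 52.9 ± 5.10 CPM (log2 fold change 0.20, adjusted p = 0.304). Its paralog Ss18l1, known as CREST in neuronal complexes, had 5.15 ± 2.05 and 4.49 ± 1.05 (-0.19, adjusted p = 0.649).

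Among the core subunits, 1 of 6 tested rose and the median log2 fold change was 0.31. Smarcd2 (BAF60B; chromosome 11, 106263179 to 106272972), 1 of 3 alternative BAF60 subunits that link the core to transcription factors, had 5.88, 4.68, 7.14 and 6.93 CPM in the controls. The mutants had 9.20, 15.2, 10.9, 17.7 and 12.8. All mutants were above all controls, and mutant 1 was nearest to them. The means were 6.16 ± 1.13 (SD, n = 4) and 13.2 ± 3.38 CPM (SD, n = 5), a log2 fold change of 1.09 (SE 0.24, edgeR adjusted p = 0.0102). Smarcd2 passed in all 9 fits without 1 library, at 0.89 to 1.19 with an adjusted p of at most 0.0356. Its alternative Smarcd1 had 2.59 ± 1.09 and 3.11 ± 0.892 CPM (log2 fold change 0.25, adjusted p = 0.62), and Smarcd3, the muscle and heart form, had 2 to 6 counts in the controls and 1 to 9 in the mutants.

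The scaffold Smarcc1 (BAF155) had 28.7, 20.9, 24.2 and 28.3 CPM in the controls and 28.5, 33.4, 32.2, 61.6 and 42.8 in the mutants. Mutant 1 lay within the controls and mutant 4 was the highest. The log2 fold change of 0.63 (SE 0.23) did not pass (edgeR adjusted p = 0.0611), and it was 0.37 without mutant 4. Without mutant 1 it passed, at 0.73 (edgeR adjusted p = 0.0348). Its partner Smarcc2 (BAF170) had 30.3, 29.6, 22.0 and 36.3 CPM against 19.7, 27.4, 20.9, 17.4 and 24.8, with a change of -0.42 (SE 0.19, edgeR adjusted p = 0.102). Smarcb1 (SNF5), the subunit that contacts the acidic patch of the nucleosome, had 47.5 ± 3.51 and 57.2 ± 8.22 CPM (0.27, adjusted p = 0.16). Smarce1 (BAF57), an HMG-box subunit, had 124 ± 29.9 and 158 ± 18.4 CPM (0.35, adjusted p = 0.141). Without control 2, where it had 167 CPM, Smarce1 was called higher, at 0.44 (edgeR adjusted p = 0.0441), as it was in limma-voom with all libraries (0.48, adjusted p = 0.0207).

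**Figure D2:**
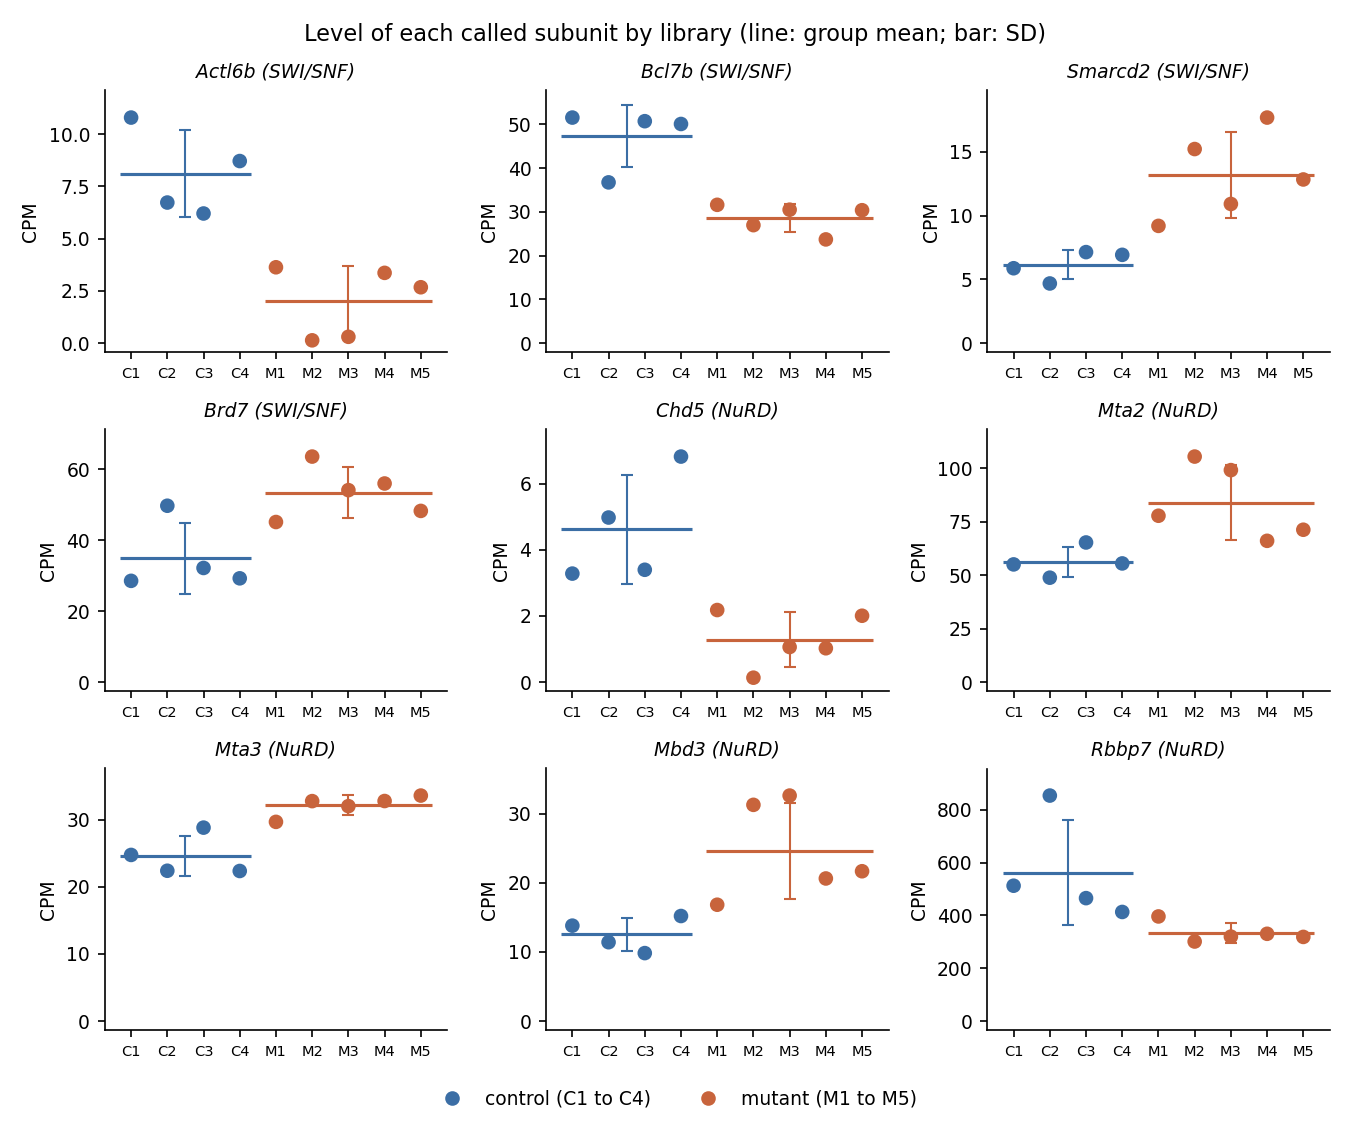
Level in CPM of the 9 subunits past the threshold in each of the 4 control (C1 to C4) and 5 mutant (M1 to M5) libraries, with the group mean (line) and SD (bar). Apart from Brd7, where control 2 (49.8 CPM) lies above mutants 1 and 5 (45.2 and 48.3), no gene has a mutant within the range of the controls.

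None of the 3 tested subunits that define canonical BAF passed, and all 3 values were below 0. For the ARID subunits, which bind DNA through an AT-rich interaction domain, a single library set the value. Arid1a had 50.6, 159, 42.5 and 42.6 CPM in the controls and 43.5, 29.5, 59.6, 42.9 and 49.8 in the mutants. Arid1b had 21.9, 130.2, 22.3 and 26.8 CPM against 16.5, 21.8, 45.4, 15.5 and 25.4. Apart from control 2, the levels of both genes overlapped between the groups. The log2 fold changes were -0.71 (SE 0.41) and -1.01 (SE 0.58), with edgeR adjusted p-values of 0.196 and 0.193. Without control 2 they were -0.10 and -0.02 (edgeR adjusted p = 0.736 and 0.971). Dpf2, the PHD-finger reader of canonical BAF, had 96.2, 79.0, 87.8 and 88.1 CPM and 77.6, 77.5, 78.7, 52.1 and 71.4. Its groups were just apart, at 79.0 and 78.7, and its change was -0.30 (SE 0.15, edgeR adjusted p = 0.145). The related Dpf3 had 5 to 7 counts in each control and 1 to 4 in each mutant, and Dpf1, known from neurons, 0 to 3 and 0 to 7.

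PBAF, the form with a polybromo subunit, had 1 higher call among 4 tested subunits. Brd7 (chromosome 8, 88331039 to 88362194), a bromodomain subunit of PBAF, had 28.6, 49.8, 32.2 and 29.3 CPM in the controls and 45.2, 63.6, 54.2, 56.0 and 48.3 in the mutants. Control 2 lay among the mutants and the other controls below them. The means were 35.0 ± 9.99 (SD, n = 4) and 53.5 ± 7.17 CPM (SD, n = 5), with a log2 fold change of 0.61 (SE 0.19, edgeR adjusted p = 0.0366). Without control 2 the change was 0.74 (edgeR adjusted p = 0.0113). Leaving out control 1, 3 or 4 or mutant 2, 3 or 4 ended the call, and over the 9 fits the change was 0.49 to 0.74 with an adjusted p of up to 0.105.

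Arid2, the ARID subunit of PBAF, had 51.9, 170.5, 43.3 and 40.0 CPM in the controls and 51.8, 44.9, 59.5, 48.1 and 42.8 in the mutants. Its log2 fold change was -0.63 (SE 0.41, edgeR adjusted p = 0.248) and turned to 0.04 without control 2. Pbrm1, the polybromo subunit, had 62.6, 113, 63.1 and 55.8 against 65.3, 53.2, 57.0, 54.3 and 71.3 CPM. Control 2 was again the highest, and the change was -0.29 with and -0.10 without it (edgeR adjusted p = 0.316 and 0.587). Phf10, a PHD-finger subunit of PBAF, had 14.5, 17.3, 11 and 8.49 CPM and 15.3, 15.9, 16.5, 52.7 and 20.5. Mutant 4 was 52.7 CPM where the other mutants had at most 20.5, and the change fell from 0.92 to 0.37 without it, past the threshold in neither fit (edgeR adjusted p = 0.107 with all libraries). Brd9, the bromodomain subunit of noncanonical BAF, had 15.3, 65.4, 17.7 and 14.6 CPM and 25.1, 17.8, 25.3, 19.0 and 24.3. Its change was -0.34 (SE 0.44, edgeR adjusted p = 0.567), and 0.40 without control 2 (edgeR adjusted p = 0.109).

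Among the NuRD ATPases, Chd5 fell. Chd5 (chromosome 4, 152338651 to 152390194), the form known from neurons and testis, had 3.28, 4.98, 3.40 and 6.82 CPM in the controls and 2.18, 0.135, 1.06, 1.02 and 2.01 in the mutants. Every mutant lay below every control, and mutant 2 had 1 count. The means were 4.62 ± 1.66 (SD, n = 4) and 1.28 ± 0.831 CPM (SD, n = 5), with a log2 fold change of -1.83 (SE 0.55, edgeR adjusted p = 0.0307). Dropping control 1, 2 or 4 or mutant 3 or 4 ended the call of Chd5 (adjusted p of up to 0.0834), and the change over the 9 fits was -2.11 to -1.58. Chd4 (Mi-2 beta), the main NuRD ATPase, had 50.03, 42.7, 46.0 and 54.2 CPM against 53.6, 58.4, 58.3, 56.6 and 76.4. Mutant 5 stood above the rest and mutant 1 lay within the controls, and the change of 0.33 (SE 0.14) did not pass (edgeR adjusted p = 0.1). Chd3 (Mi-2 alpha) had 10.8, 7.90, 6.79 and 9.5 CPM and 6.05, 5.66, 3.49, 6.14 and 7.63, a change of -0.59 (SE 0.26, edgeR adjusted p = 0.0985). DESeq2 called Chd3 lower (-0.69, adjusted p = 0.0435).

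Beside the falls of Actl6b and Chd5 stand the levels of the endocrine granule and exocytosis genes. Their mean log2 CPM was 7.24 to 7.66 in the controls, and 6.55, 2.26, 4.67, 6.05 and 6.05 in mutants 1 to 5, lowest where Actl6b had 1 and 2 counts. With that score as a covariate, the log2 fold change was 0.29 for Actl6b and -0.34 for Chd5 (edgeR adjusted p = 0.769 and 0.804). Pdx1 itself was lowest in mutants 2 and 3 (4.18 and 7.13 CPM), and its change was -0.068 with the covariate (edgeR adjusted p = 0.924). Without mutants 2 and 3, and with no covariate, the change of Pdx1 was -0.78 (edgeR adjusted p = 0.0268). For the other called subunits the covariate gave -0.68 for Bcl7b, 0.93 for Smarcd2, 0.40 for Brd7, 0.21 for Mta2, 0.34 for Mta3, 0.49 for Mbd3 and -0.57 for Rbbp7. No subunit passed with it (edgeR adjusted p of 0.110 for Bcl7b and 0.136 for Smarcd2). In that fit 6 SWI/SNF and 0 NuRD subunits had an unadjusted p under 0.05. Among all 12402 genes, 2147 higher and 541 lower ones did. With the acinar score as covariate instead, the change was 0.093 for Bcl7b, -0.43 for Smarcd2, -0.49 for Brd7 and -0.0079 for Mta3. It was 0.21 for Actl6b and 2.35 for Chd5, and 0.055, 0.35 and -0.52 for Mta2, Mbd3 and Rbbp7. Standard errors there were 0.65 for Bcl7b and 0.97 for Smarcd2, and no gene passed. Each score separates the groups completely, so its share of a difference and that of the genotype cannot be told apart.

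The MTA scaffolds, which hold the deacetylases and the RBBP histone chaperones together, were all higher in every mutant than in every control, and 2 of the 3 passed. Of all 12402 genes, 2295 were likewise higher in every mutant than in every control, and 20.6% were called higher. Mta2 (chromosome 19, 8941875 to 8952303) had 55.1, 48.9, 65.3 and 55.5 CPM in the controls and 77.9, 106, 99.2, 66.1 and 71.3 in the mutants. Mutants 2 and 3 were the highest, and mutant 4 was just above control 3. The means were 56.2 ± 6.81 (SD, n = 4) and 84.0 ± 17.4 CPM (SD, n = 5), with a log2 fold change of 0.58 (SE 0.17, edgeR adjusted p = 0.0309). Mta3 (chromosome 17, 83706163 to 83821516) had 24.7, 22.4, 28.8 and 22.4 CPM and 29.7, 32.8, 32.0, 32.8 and 33.6. Control 3 and mutant 1 nearly met, and the change was 0.39 (SE 0.12, edgeR adjusted p = 0.0388). Mta1 had 10.1, 8.34, 11.5 and 8.83 CPM against 11.7, 16.0, 15.5, 11.6 and 13.6. Its groups nearly touched, at 11.5 in control 3 and 11.6 in mutant 4, and its change of 0.50 (SE 0.18) did not pass (edgeR adjusted p = 0.0604), whereas limma-voom called it higher (0.46, adjusted p = 0.0442).

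Both MTA calls depended on single libraries and on the scaling. Without control 1, 2 or 4 or mutant 2 or 3, Mta2 did not pass, with changes of 0.42 to 0.66 and an adjusted p of up to 0.116 over the 9 fits. Mta3 did not pass without control 1, 2 or 4 or mutant 2, 3, 4 or 5, and its range was 0.25 to 0.47 with an adjusted p of up to 0.137. Both stayed above 0 and lost the call under RLE scaling (0.48 and 0.28), without the low-count filter, under scaling without the hormone genes and in DESeq2 (edgeR adjusted p = 0.0631 and 0.103 under RLE).

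Mbd3, the methyl-CpG-binding-domain subunit without affinity for methylated DNA, rose, and Mbd2, the alternative subunit that binds methylated DNA, did not. Mbd3 (chromosome 10, 80392539 to 80399550) had 13.8, 11.4, 9.84 and 15.2 CPM in the controls and 16.8, 31.3, 32.6, 20.6 and 21.7 in the mutants. Mutants 2 and 3 were the highest and mutant 1 was nearest to the controls. The means were 12.6 ± 2.40 (SD, n = 4) and 24.6 ± 6.95 CPM (SD, n = 5), with a log2 fold change of 0.97 (SE 0.24, edgeR adjusted p = 0.0143). Dropping control 2 or mutant 3 ended it (adjusted p of up to 0.0521), and the change was 0.79 to 1.08 over the 9 fits. Mbd2 had 15.4, 20.8, 12.3 and 11.1 CPM and 10.2, 11.5, 12.9, 14.6 and 12.4, with a change of -0.27 (SE 0.22, edgeR adjusted p = 0.341).

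Mutants 2 and 3, where Mta2 and Mbd3 were highest, also had the highest mean log2 CPM of the proliferation genes, 5.14 and 4.91 against 3.56, 3.3 and 3.62 in mutants 1, 4 and 5 and 2.29 to 3.12 in the controls. Mutants 2 and 3 also had the lowest mean log2 CPM of the endocrine granule and exocytosis genes, 2.26 and 4.67. The part of either gene set in the levels of Mta2 and Mbd3 in these libraries was not tested. Without mutants 2 and 3 the log2 fold change was 0.30 for Mta2 and 0.59 for Mbd3 (edgeR adjusted p = 0.241 and 0.0873), and 0.46, 0.32 and -0.73 for Brd7, Mta3 and Rbbp7, none past the threshold. The 4 calls that remained without them were Actl6b, Bcl7b (-0.78), Smarcd2 (1.03) and Chd5 (-1.45).

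**Figure D3:**
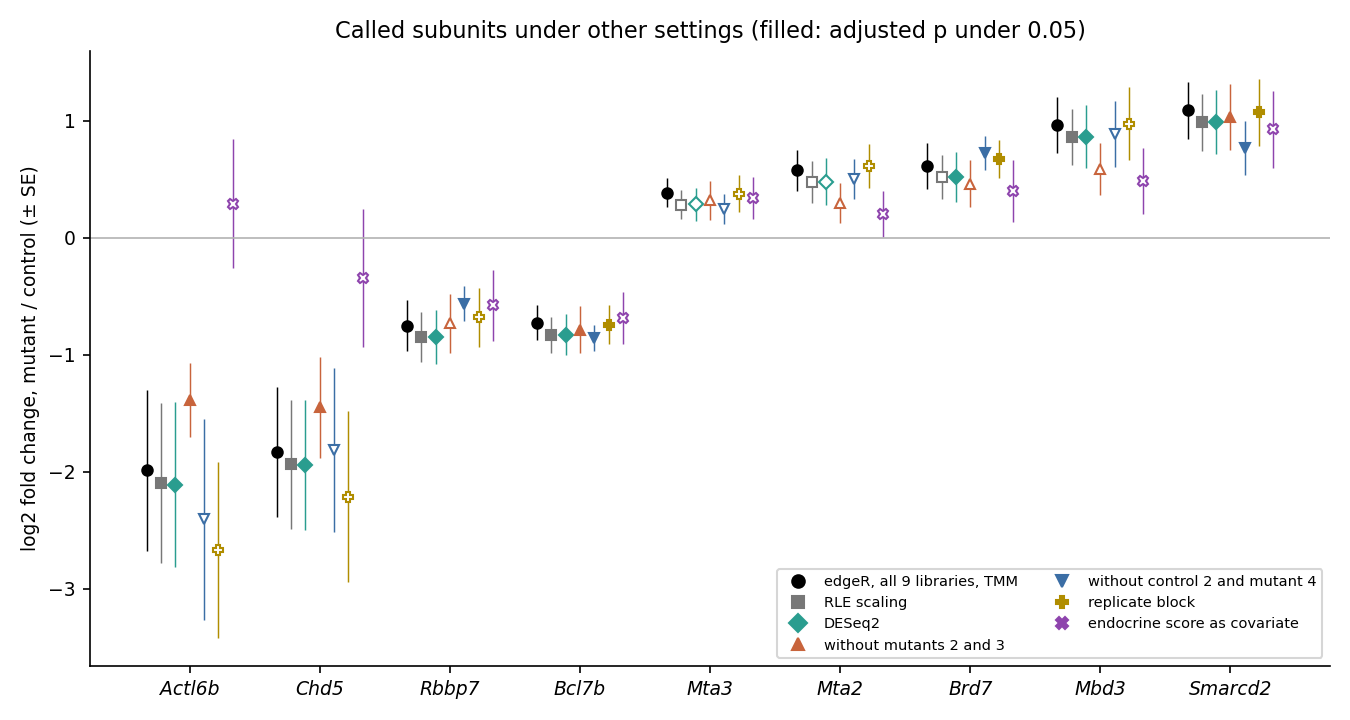
Log2 fold change with its standard error for the 9 called subunits with all 9 libraries and under 6 other settings (filled symbols passed an adjusted p of 0.05). Bcl7b and Smarcd2 stay filled under all settings shown except the endocrine score covariate, under which Actl6b moves from -1.99 to 0.29. The acinar score covariate is not shown. With it Bcl7b was 0.093 and Smarcd2 -0.43, and neither passed.

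The histone chaperones Rbbp4 and Rbbp7, WD40 proteins that bind histones H3 and H4 and are shared with other complexes, were both below 0 and 1 of them fell. Rbbp7 (chromosome X, 162760402 to 162779092) had 513, 854, 466 and 413 CPM in the controls and 396, 301, 320 and 331 in mutants 1 to 4, with 319 in mutant 5. Every mutant lay below every control, and control 2 was far above the rest. The means were 561 ± 199 (SD, n = 4) and 333 ± 36.7 CPM (SD, n = 5), with a log2 fold change of -0.75 (SE 0.22, edgeR adjusted p = 0.0267). Without control 2 the change was -0.57 and passed (edgeR adjusted p = 0.0217), whereas dropping control 1 or mutant 5 ended the call (adjusted p of up to 0.0545, changes of -0.87 to -0.57 over the 9 fits). Rbbp4 had 201, 199, 216 and 204 CPM and 208, 172, 169, 164 and 175, a change of -0.21 (SE 0.12, edgeR adjusted p = 0.195), and DESeq2 called it lower (-0.31, adjusted p = 0.0289). Mutant 1 lay within the controls and the other mutants below them.

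The deacetylases did not pass. Hdac1 had 106, 80.5, 97.8 and 89.7 CPM in the controls and 81.1, 52.8, 53.1, 85.0 and 77.7 in the mutants, with overlapping groups and a log2 fold change of -0.42 (SE 0.18, edgeR adjusted p = 0.101). DESeq2, limma-voom and the fit without control 2 and mutant 4 called it lower. Hdac2 had 13.9, 25.9, 8.67 and 9.5 CPM against 11.1, 9.57, 9.25, 37.7 and 13.8. Control 2 and mutant 4 were the high libraries, and the change of 0.17 (SE 0.49, edgeR adjusted p = 0.805) turned to -0.44 without mutant 4. The GATAD2 subunits, which bridge the MBD protein to the ATPase, had 48.1 ± 5.26 and 50.1 ± 9.60 CPM for Gatad2a and 2.99 ± 1.07 and 2.44 ± 0.509 for Gatad2b. Their log2 fold changes were 0.06, with a sign that flipped under RLE scaling, and -0.28 (edgeR adjusted p = 0.799 and 0.51).

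Many of these subunits are alternatives for a single place in the complex, so the ratio of 2 paralogs within a library was compared too. A within-library ratio does not depend on the scaling of the library. Of 20 listed pairs, 17 could be tested, each by an exact two-sided permutation test of the group labels, whose smallest possible p with 4 and 5 libraries is 0.00794. The pairs were chosen with results of these data known. At a Benjamini-Hochberg adjusted p under 0.05 over the 17 pairs, 3 passed, all in NuRD, and 7 had an unadjusted p under 0.05. All 3 tied at the smallest possible p, which would not pass for a single pair on its own. Whether the complexes differ in this was not tested. Pairs of other genes were not tested either, so these counts have no background share beside them. Of single genes, 33.2% had no overlap between the groups.

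The Chd3 to Chd4 log2 ratio was -2.18, -2.40, -2.71 and -2.48 in the controls and -3.09, -3.31, -3.96, -3.15 and -3.28 in the mutants. The groups were apart, and the ratio fell by 0.91, from -2.44 ± 0.22 to -3.36 ± 0.35 (SD, n = 4 and 5; exact p = 0.00794, adjusted p = 0.045). The Mbd2 to Mbd3 log2 ratio was 0.16, 0.85, 0.31 and -0.45 in the controls and -0.71, -1.43, -1.32, -0.49 and -0.79 in the mutants. The ratio was above 0 in 3 of 4 controls and below 0 in all 5 mutants, a difference of -1.17 (exact p = 0.00794, adjusted p = 0.045). The Rbbp7 to Rbbp4 log2 ratio was 1.35, 2.10, 1.11 and 1.02 in the controls and 0.93, 0.81, 0.92, 1.01 and 0.87 in the mutants. Here the groups nearly touched, with a difference of -0.49 (exact p = 0.00794, adjusted p = 0.045) that was -0.25 without control 2.

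Another 4 pairs stood near the threshold, 3 of them without overlap. Smarcc2 to Smarcc1 was 0.08, 0.49, -0.14 and 0.36 on the log2 scale in the controls and -0.52, -0.29, -0.61, -1.81 and -0.78 in the mutants, a difference of -1.001 (exact p = 0.0159, adjusted p = 0.054). Chd5 to Chd4 was -3.83, -3.04, -3.66 and -2.94 against -4.46, -7.20, -5.46, -5.46 and -5.08, a difference of -2.17 with the same p-values. Actl6b to Actl6a was -1.81, -2.66, -2.90 and -2.25 against -3.82, -6.94, -6.66, -3.85 and -4.26, a difference of -2.70 (exact p = 0.0238, adjusted p = 0.0578). In these 3 pairs every mutant ratio was below every control ratio, and in the Actl6 and Chd5 pairs the lowest mutant values rest on 1 or 2 counts. Bcl7b to Bcl7c differed by -1.65 with overlapping groups (exact p = 0.0238, adjusted p = 0.0578).

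For the other 10 pairs the exact p was 0.103 or more. The ATPase pair Smarca2 to Smarca4 differed by -0.11 (exact p = 0.619), Arid1b to Arid1a by -0.16, Mta3 to Mta2 by -0.17 and Mta1 to Mta2 by -0.08. Arid1a and Arid2 were both high in control 2, and their log2 ratio (Arid2 to Arid1a) was 0.04, 0.10, 0.03 and -0.09 in the controls. Arid1b to Arid1a was -1.20, -0.28, -0.93 and -0.66, highest in control 2. No pair passed after any 1 library was left out, where fewer splits raise the smallest p, and 4 to 7 pairs then had an unadjusted p under 0.05.

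**Figure D4:**
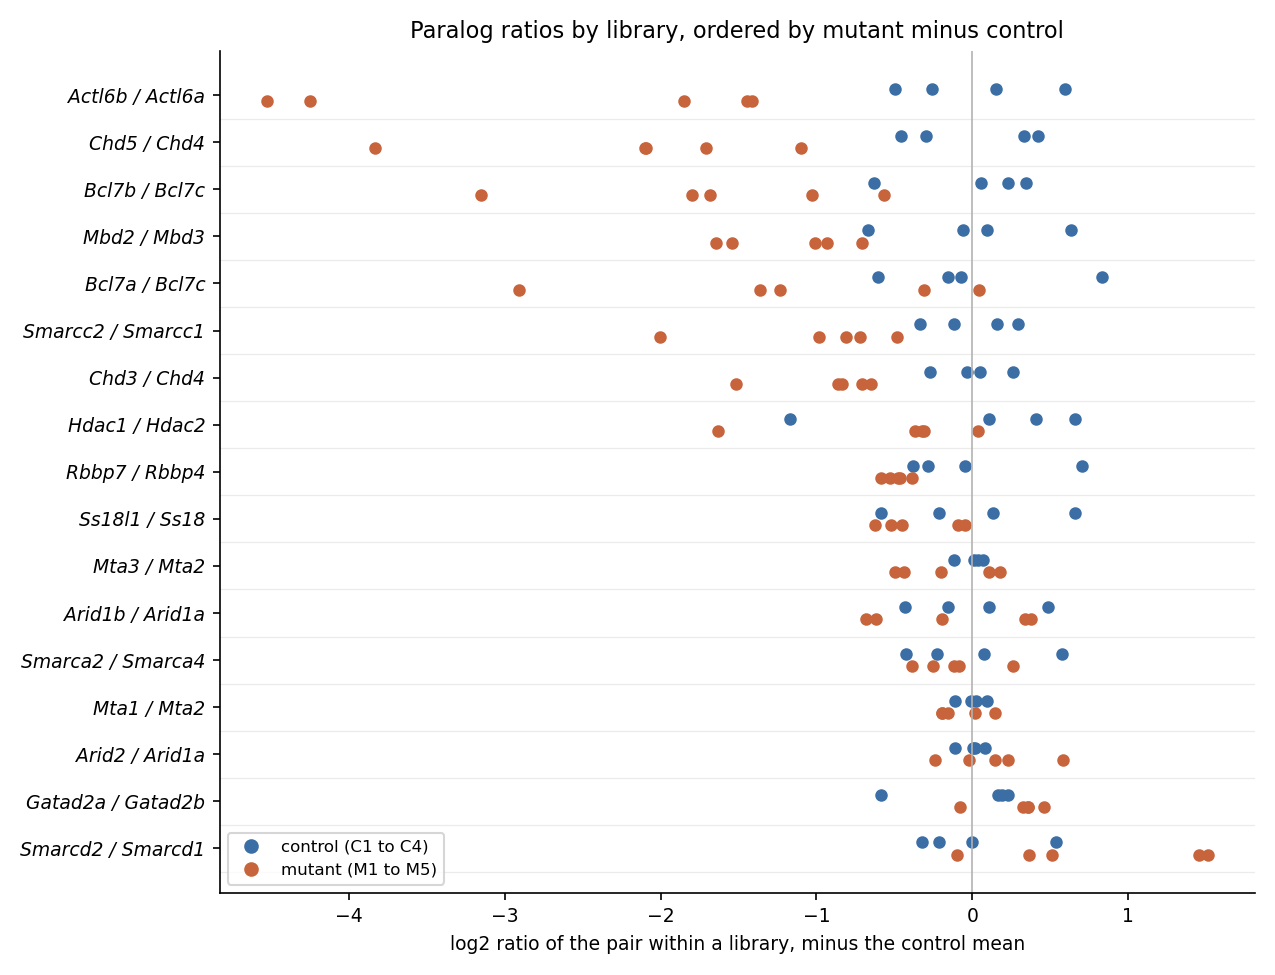
Log2 ratio of 17 paralog pairs within each library, minus the mean of the 4 controls, for the control (C1 to C4) and mutant (M1 to M5) libraries. Mutant points lie left of all control points for Actl6b/Actl6a, Chd5/Chd4, Mbd2/Mbd3, Smarcc2/Smarcc1, Chd3/Chd4 and Rbbp7/Rbbp4, by 0.49 to 2.70 on average.

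Control 2 and mutant 4 stood apart from their groups for several subunits. By Dixon's criterion, control 2 was apart for 4 of the 37 subunits (10.8%), 3 high and 1 low, and for 4.19% of all 12402 genes (376 high and 144 low). Mutant 4 was apart for 3 subunits (8.11%) and 2.19% of genes, and each of the other libraries for 0.298% to 1.23% of genes. Summed over the SWI/SNF subunits, control 2 had 1350 CPM where the other controls had 850.3 to 885 and the mutants 872 to 958. Summed over NuRD, it had 1380 CPM where the other controls had 953 to 1072 and the mutants 842 to 967. Arid1a, Arid1b, Arid2, Pbrm1, Brd9 and Rbbp7 each had their highest level there. Without both libraries, 4 of the 9 calls remained (Bcl7b, Smarcd2, Brd7 and Rbbp7), and Smarce1 (higher) and Hdac1 (lower) were added. The cause of the difference of these libraries was not tested.

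**Figure D5:**
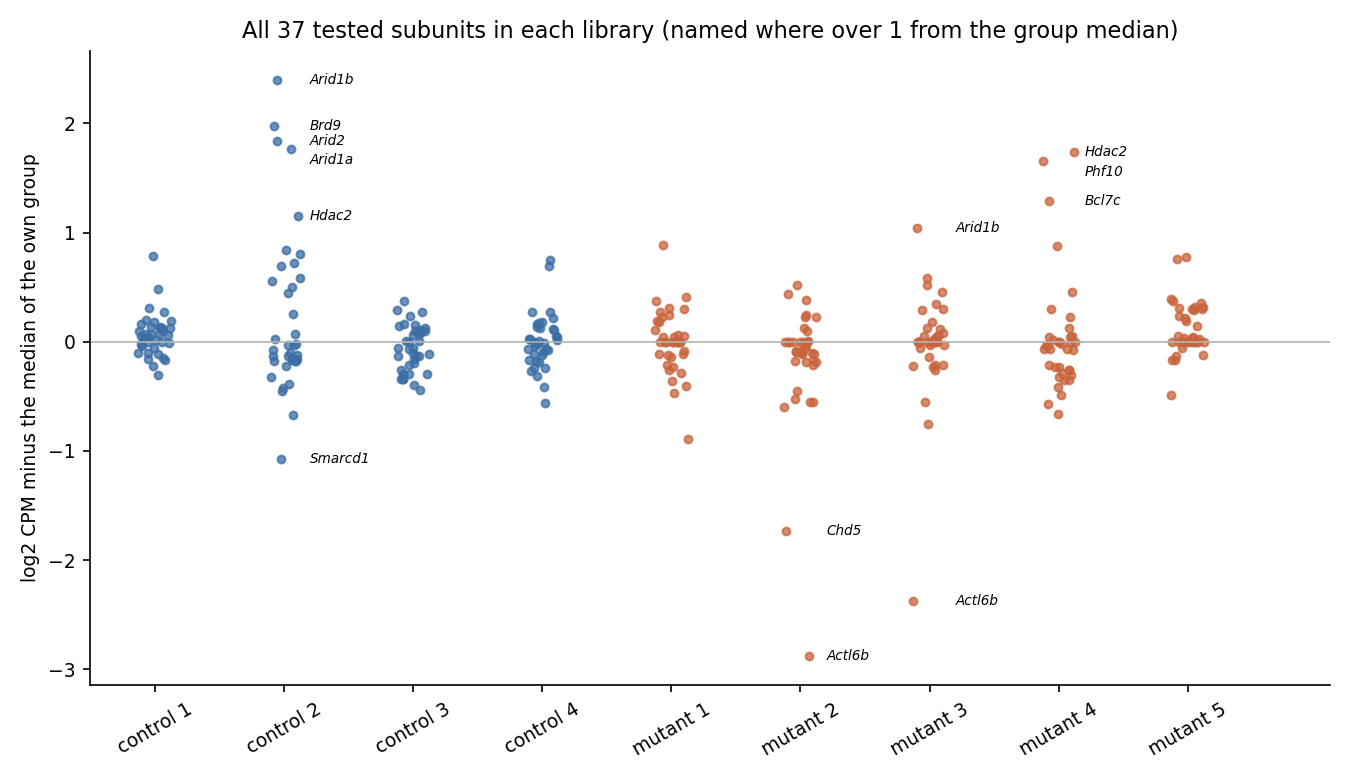
Log2 CPM of each of the 37 tested subunits in each library minus the median of the library's own group, with subunits over 1 from it named. Control 2 has 5 named points above 0 and mutant 4 has 3, and the named points below 0 are Smarcd1 in control 2, Chd5 in mutant 2 and Actl6b in mutants 2 and 3.

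Levels can be compared between subunits only per length. Divided by the union of annotated exons (GENCODE vM21), the mean control level was highest for Rbbp7, at 193 CPM per kb, followed by Hdac1 (45.9), Rbbp4 (44.8) and Smarce1 (42.5). In the mutants these were 115, 34.3, 38.9 and 54.2. Smarca4 had 14.2 and 11.9 CPM per kb and Smarca2 7.77 and 5.88 in controls and mutants. Among the NuRD ATPases Chd4 had 6.59 and 8.29, Chd3 1.20 and 0.793 and Chd5 0.487 and 0.135 CPM per kb, so Chd4 led in both groups. Mbd3 and Mbd2 were alike in the controls (6.46 and 6.08 CPM per kb) and differed in the mutants (12.6 and 5.03). Actl6a exceeded Actl6b in both, at 18.7 and 4.72 in the controls and 23.2 and 1.18 in the mutants. No subunit shared a stretch of 50 bases with another subunit's transcripts, and 26 of the 40 shared none with any other gene. Of Hdac1's 50-base stretches 58.7% also occur in transcripts of other genes, most often Gm10093. For Smarce1 it was 35.1%, most often in Gm8494. The other subunits over 5% were Bcl7c (18.4%), Ss18 (10%) and Rbbp7 (6.97%). The values of these 5 depend on how the authors' counting placed such reads. Overlapping or antisense genes cannot be told apart where strand was not used.

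The other remodelling and corepressor families gave shares of calls near those of all genes. There were 66 tested among 70 listed genes found in the count file, and 13 were higher (19.7%) and 9 lower (13.6%), with a median log2 fold change of -0.07. In the ISWI family (11 genes), 2 rose and 3 fell, among them Bptf, the largest NURF subunit (-1.02, SE 0.18, edgeR adjusted p = 0.00427), Baz1a, the ACF1 partner of Smarca5 (0.82, SE 0.16, adjusted p = 0.00677), and Pole3, a histone-fold subunit of CHRAC (0.95, SE 0.27, adjusted p = 0.0267). Of 25 tested genes of the INO80, SRCAP and TIP60 complexes, 4 were called higher and none lower, with 8 at an unadjusted p under 0.05. The uncalled genes among these 8 were all below 0, namely Ep400 (-0.40), Brd8 (-0.70), Ing3 (-0.39) and Morf4l1 (-0.47). Over the 25 genes, 12 values were above 0 and 13 below. The lowest p-values were those of Mcrs1 of INO80 (0.72), the shared AAA ATPase Ruvbl1 (0.69) and Dmap1 of SRCAP and TIP60 (0.56; adjusted p = 0.00847, 0.00867 and 0.0238). The other called gene, Uchl5, a deubiquitinase of INO80, had the largest fold of the 4 and is named after its values were seen, at 59.5 and 125.5 CPM (1.08, SE 0.35, adjusted p = 0.0389).

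Among 9 CHD and related ATPases outside NuRD, 3 rose and 1 fell. Chd7, the CHARGE syndrome gene, fell from 33.6 to 13.6 CPM (-1.31, SE 0.25, edgeR adjusted p = 0.00562). Chd1l rose by 0.88 and Hells, a remodeller linked to DNA methylation, by 1.39 (adjusted p = 0.00565 and 0.0253). In the SIN3 and CoREST deacetylase complexes, which share Hdac1 and Hdac2 with NuRD, 3 of 18 genes rose and 4 fell. Hmg20b, the BRAF35 subunit of CoREST, rose from 17.3 to 46.7 CPM (1.43, SE 0.22, adjusted p = 0.00295). Phf21a, the reader of unmethylated H3 lysine in CoREST (-0.68), and Sap18 of SIN3 (-0.91) fell (adjusted p = 0.00765 and 0.0115). Of the further SWI/SNF and NuRD subunits outside the 40, beta-actin (Actb), which sits beside the Actl6 protein, rose from 1052 to 1816 CPM (0.79, adjusted p = 0.04) and Cdk2ap1, a NuRD subunit, fell from 12.6 to 6.37 CPM (-0.98, adjusted p = 0.0173).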

How the data were processed

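Whole-number counts per gene symbol were deposited by the authors without normalization. RNA was extracted with a DirectZol kit and libraries made with a low-input NEBNext kit, per the labels' protocols. For the whole project, the submitters' processing notes list the build mm10 and, without roles, STAR, RSEM, Bowtie2, HOMER, DESeq2, R 4.1.0, Cell Ranger, Signac and Seurat. The aligner, counter, annotation and strand setting of this table are not given in the sources used here. Groups came from titles and genotype labels, and no 2 libraries of a group differed by as little as sampling noise. Depth was 6092010 to 9163253 counts a library.

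All genes were fitted together with edgeR 4.0.16 (R 4.3.3; filterByExpr, 12402 genes; TMM; quasi-likelihood test, two-sided; Benjamini-Hochberg 0.05). SE is the unshrunken log2 fold change over the square root of F, and log2 CPM used a prior count of 2. Loci, lengths and 50-base stretches came from GENCODE vM21 (GRCm38). Every subunit is named, and up to 3 called genes of lowest p from each other list. The members and lists were chosen with earlier results of these data known. Alternatives were RLE, scaling without hormone or acinar genes, no and a stricter filter (CPM of 1 in 4 libraries), acinar or endocrine score covariates, a replicate block, each library left out, no mutants 2 and 3, DESeq2 1.42.0 and limma-voom (limma 3.58.1), and, added after seeing the data, no control 2 and mutant 4. In simulated data (12192 genes), 13% of 100 genes changed 2-fold and 74% of 100 changed 4-fold were recovered, and 6.45% of calls were unchanged genes. No other gene was changed there and 93 were called, where 4022 were called in the real data. With so few changed genes the adjusted threshold is stricter, so these shares are not the recovery in the real comparison.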

Additional observations from a re-analysis of the deposited data

Results flagged for a closer look

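A library far from the others of its group was sought by Dixon's criterion at the 95% level. It was found in 9 of 76 groups of levels, those of the tested subunits and Pdx1. Among the groups of paralog ratios it was found in 4 of 34. Chance alone gives about 1 in 20. In control 2, Bcl7b was low at 36.7 CPM, and Arid1a, Arid1b and Brd9 were high at 158.6, 130.2 and 65.4 CPM. In mutant 4, Dpf2 was low at 52.1 CPM, and Phf10 and Hdac2 were high at 52.7 and 37.7 CPM. Chd4 was high in mutant 5 at 76.4 CPM and Rbbp4 in mutant 1 at 207.8 CPM. Among the log2 ratios, Chd3 to Chd4 was low in mutant 3 at -3.96 and Hdac1 to Hdac2 was low in mutant 4 at 1.17. Gatad2a to Gatad2b was low in control 2 at 3.36 and in mutant 2 at 3.86. Genes and ratios share libraries, so these are not independent.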

How the results depend on the processing

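Counts of calls (SWI/SNF higher and lower 2 and 2, NuRD 3 and 2) moved with most settings. RLE scaling gave 1 higher call in each complex, as did omitting the low-count filter, and TMM without the hormone genes, or without hormone and acinar genes, 1 higher NuRD call. DESeq2 gave 1 higher and 5 lower NuRD calls, 2617 lower genes in all and 15 lower among the other remodellers. Limma-voom gave 4 higher SWI/SNF calls and 2294 lower genes in all. With the acinar score as covariate, which separates the groups, edgeR called 0 genes of any kind (196 higher and 146 lower at an unadjusted p under 0.05, 1 NuRD subunit among them). With the endocrine score edgeR called 0 subunits, 417 higher and 54 lower genes in all, and 1 higher and 0 lower other remodellers (at an unadjusted p under 0.05, 7 and 6). Without mutants 2 and 3 there were 1 higher SWI/SNF, 0 higher and 1 lower NuRD calls, 1355 higher genes in all and 6 higher other remodellers. Without control 2 and mutant 4, chosen after seeing the data, there were 1 lower SWI/SNF and 0 higher NuRD calls (2 at an unadjusted p under 0.05) and 7 higher other remodellers. Both of these fits gave 0 paralog pairs past the threshold (4 at an unadjusted p under 0.05). With fewer splits the smallest possible p rises, so hardly any pair could pass, and nothing is concluded from the loss. The stricter filter changed no call of a subunit. DESeq2 kept 7 of the 9 called subunits and added Smarca2, Chd3, Hdac1 and Rbbp4 (lower), and limma-voom kept all 9 and added Actl6a, Smarce1 and Mta1 (higher) and Hdac1 (lower).

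Replicate numbers did not pair the libraries: same-numbered deviations correlated at 0.05, -0.02, 0.18 and -0.05. With the replicate number as a block, edgeR called 1 lower SWI/SNF subunit and 0 higher and 0 lower NuRD subunits (2 and 4 at an unadjusted p under 0.05), 1658 higher and 774 lower genes in all and 7 higher other remodellers, and Bcl7b, Smarcd2 and Brd7 kept their calls.

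Leaving out 1 library gave 1 to 3 higher and 1 to 2 lower SWI/SNF calls, 0 to 3 higher and 0 to 2 lower NuRD calls, 1579 to 2702 higher and 699 to 1865 lower genes, 5 to 12 higher and 6 to 10 lower other remodellers, and 0 to 0 paralog pairs, whose smallest p rises with fewer splits.

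Signs reversed as follows, for log2 fold changes unless a ratio is named. With the acinar score: Pdx1 0.23, Smarca4 1.02, Actl6b 0.21, Ss18l1 0.34, Bcl7a 1.99, Bcl7b 0.093, Bcl7c -3.12, Smarcc1 -0.53, Smarcc2 0.58, Smarcd2 -0.43, Dpf2 0.51, Pbrm1 0.37, Brd7 -0.49, Phf10 -2.35, Chd3 0.77, Chd5 2.35, Hdac2 -2.99, Mta3 -0.0079, Rbbp4 0.30 and Gatad2b 1.25, at adjusted p of 1 after rounding. With the endocrine score: Smarca4 0.18 and Actl6b 0.29. Gatad2a was -0.046 with RLE, -7.45e-05 with TMM without hormone genes, -0.0083 without the filter, -0.027 with the replicate block and -0.041 in DESeq2, and Brd9 0.37 in limma-voom. Without control 2 and mutant 4, Arid1b was 0.11, Arid2 0.051, Brd9 0.45, Hdac2 -0.060, Gatad2b 0.0075 and the Smarca2/Smarca4 and Arid1b/Arid1a ratios 0.078 and 0.14. Mta3/Mta2 was 0.028 without mutants 2 and 3. With 1 library left out, the ranges that cross 0 were -0.027 to 0.099 for Gatad2a (below 0 without control 2 or 3 or mutant 1 or 5), -0.38 to 0.10 for Ss18l1 (above 0 without control 1), -0.068 to 0.46 for Smarcd1, -0.84 to 0.040 for Arid2, -0.56 to 0.40 for Brd9, -0.26 to 0.077 for Smarca2/Smarca4 and -0.30 to 0.0046 for Arid1b/Arid1a (all 5 reversed without control 2), and -0.44 to 0.51 for Hdac2 (below 0 without control 3 or mutant 4). The cause of these changes was not tested. Precision is limited by 4 and 5 libraries and, for Actl6b, Chd5, Smarcd1, Bcl7c and Gatad2b, by low counts.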
